A study of Mus musculus with 6 samples.

Results

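The circadian clock of the liver was read here through 10 genes, Arntl, Per1, Per2, Cry1, Nr1d1, Nr1d2, Dbp, Tef, Hlf and Noct, in livers of PiZ and wild-type mice. The genes were given by name, and every probe set (a group of short array probes that reads 1 transcript) whose platform annotation named exactly 1 of them was kept. That gave 16 probe sets for all 10 genes, out of 22690 probe sets on the array and 12393 genes with a probe set of their own. The animals were 3 PiZ mice, which carry a human alpha-1 antitrypsin transgene with the Z mutation. The protein is secreted by liver cells, and its Z form misfolds and collects inside hepatocytes. The PiZ mice were compared with 3 wild-type mice, and both groups were 6 weeks old, on a C57BL/6 background, with whole liver sampled. Each mouse, a biological replicate per the labels, gave 1 one-colour Affymetrix array, and values are log2 intensities (a difference of 1 is a doubling). The labels used here name no hour of collection, feeding state or sex. Any difference in these between the groups cannot be told apart from genotype, so every change given below may carry it.

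The clock is a loop of transcription factors that runs in nearly every cell and in the liver follows the brain's clock, meals and hormones. Arntl (Bmal1) and its partners Clock or Npas2 bind E-boxes and switch on Per and Cry genes, whose proteins then block them. Nr1d1 and Nr1d2 (REV-ERB alpha and beta) repress Arntl through ROR elements, and Dbp, Tef and Hlf, the PAR bZIP factors, carry the rhythm to liver metabolism through D-boxes. In mouse liver the mRNAs of Arntl, Npas2 and Clock are known to peak near the end of the night, and those of Nr1d1, Dbp, Tef and the Per genes later, by day or in the early night.

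Since the loop acts through short DNA motifs, start regions of Arntl and of members that ran opposite to it below are shown. RefSeq (build GRCm38.p6) gave 12 start windows for 9 of the 10 members, each from 250 bases before to 50 bases after a transcription start. Both strands were searched for 6 motifs: the E-box CACGTG, the E-prime box CACGTT, the D-box TTANNTAA, the ROR element, the cAMP response element TGACGTCA and the C/EBP-ATF composite site TGATGNAAT. These were found in 7.15%, 4.68%, 6%, 0.384%, 1.79% and 0.965% of all 32851 windows of that length. Matches were found for 6 members, and a match is a description of letters only. The bases before the start are printed with the matches in capitals, and for Arntl only the short stretch around its match.
Per1 (chr11:69098699-69098948, plus strand, E-box from 166 bases before the start): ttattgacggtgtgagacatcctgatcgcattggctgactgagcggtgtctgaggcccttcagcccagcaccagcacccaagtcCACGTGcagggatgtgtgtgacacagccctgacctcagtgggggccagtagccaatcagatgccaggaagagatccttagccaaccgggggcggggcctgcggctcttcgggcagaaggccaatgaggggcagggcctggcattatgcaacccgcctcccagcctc
Tef (chr15:81802423-81802672, plus strand, D-box and then E-box): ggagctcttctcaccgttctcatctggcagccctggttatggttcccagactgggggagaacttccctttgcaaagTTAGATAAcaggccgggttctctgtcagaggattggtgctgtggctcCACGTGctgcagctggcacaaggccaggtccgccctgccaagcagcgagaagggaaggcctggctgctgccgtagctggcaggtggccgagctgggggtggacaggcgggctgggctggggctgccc
Hlf (chr11:90390918-90391167, minus strand, cAMP response element from 9 bases before the start): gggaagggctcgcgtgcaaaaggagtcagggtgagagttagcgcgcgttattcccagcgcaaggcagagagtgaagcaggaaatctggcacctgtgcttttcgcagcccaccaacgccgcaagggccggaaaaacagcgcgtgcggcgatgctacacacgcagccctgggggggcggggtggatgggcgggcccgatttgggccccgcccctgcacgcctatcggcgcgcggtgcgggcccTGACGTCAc
Dbp (chr7:45704997-45705246, plus strand, none of the motifs): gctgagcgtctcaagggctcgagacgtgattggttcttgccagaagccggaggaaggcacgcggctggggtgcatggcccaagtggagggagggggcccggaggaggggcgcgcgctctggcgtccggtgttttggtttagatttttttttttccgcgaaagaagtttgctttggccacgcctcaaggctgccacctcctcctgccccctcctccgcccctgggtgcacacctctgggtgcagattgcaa
Arntl (chr7:113207528-113207556, plus strand, ROR element after the start): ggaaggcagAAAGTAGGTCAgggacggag
Besides these, Cry1 held an E-box and an E-prime box, Nr1d1 an E-prime box, and the other start of Tef an E-box. The other starts of Per1 and Arntl held none. The windows of Nr1d2 and Noct held none of the 6 motifs.

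The arrays of PiZ replicates 2 and 3 stood apart from the other 4 in control probe sets, which touches every result below. The difference between the 3′ and 5′ ends of the control transcript Gapdh, which grows as RNA is shortened, was 1.99, 4.39 and 4.01 in PiZ replicates 1, 2 and 3, against 1.49, 2.06 and 1.65 in wild-type replicates 1, 2 and 3. The hybridization controls, which are spiked in and do not read the sample's RNA, had distances from their wild-type average of 0.20 in PiZ replicate 1, 1.08 in replicate 2 and 1.00 in replicate 3, against -0.10 to 0.09 among wild-type arrays. The mean of the Gapdh difference and that of beta-actin served as the covariate wherever a value is given as adjusted for control 3′ to 5′ signal. It was highest in PiZ replicates 2 and 3, and adjusted member changes lay close to those of PiZ replicate 1 alone. They were -3.68 and -3.50 for Dbp 1438211_s_at, 1.98 and 1.77 for Arntl, and -1.11 and -1.07 for Hlf 1434736_at. These 2 settings are not separate checks. A fit with PiZ replicate 1 alone holds no spread among PiZ mice. Among cell type markers, which check what the tissue held, 0 of 6 hepatocyte genes passed (limma, 2 with an unadjusted p below 0.05), with summed intensities of 108657 to 120164 in PiZ and 127977 to 129823 in wild-type. Of 6 Kupffer cell and macrophage genes 3 rose (Cd5l, Clec4f and Marco), with summed intensities of 7635 to 9297 in PiZ and 5820 to 6013 in wild-type, and of 5 neutrophil genes 2 rose (S100a8 and S100a9), with 487 to 680 in PiZ and 111 to 172 in wild-type. Of 6 endothelial, 6 stellate, 5 biliary and 6 lymphocyte genes, 0 passed (limma, with 1, 0, 2 and 0 at an unadjusted p below 0.05). The part of the marker shifts in the clock results was not tested, and in whole liver fewer cells of a type and less RNA per cell cannot be told apart.

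Across the clock, the PAR bZIP genes Dbp and Hlf and the repressor Nr1d2 fell in PiZ liver, Per1 and Noct rose, and Arntl, Per2, Cry1, Nr1d1 and Tef did not pass the test. By probe set, 2 of 16 rose and 4 fell (limma, Benjamini-Hochberg adjusted p below 0.05 over 22626 probe sets). Over all probe sets 8.93% rose and 10.2% fell. The median log2 change of the 16 was -0.37, and that of all probe sets 0.08. PiZ and wild-type values did not overlap for 7 of the 16, against 42% of all probe sets, so that share lay near the background. Changes are PiZ minus wild-type, n was 3 per group, and SE is the standard error.

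**Figure D1:**
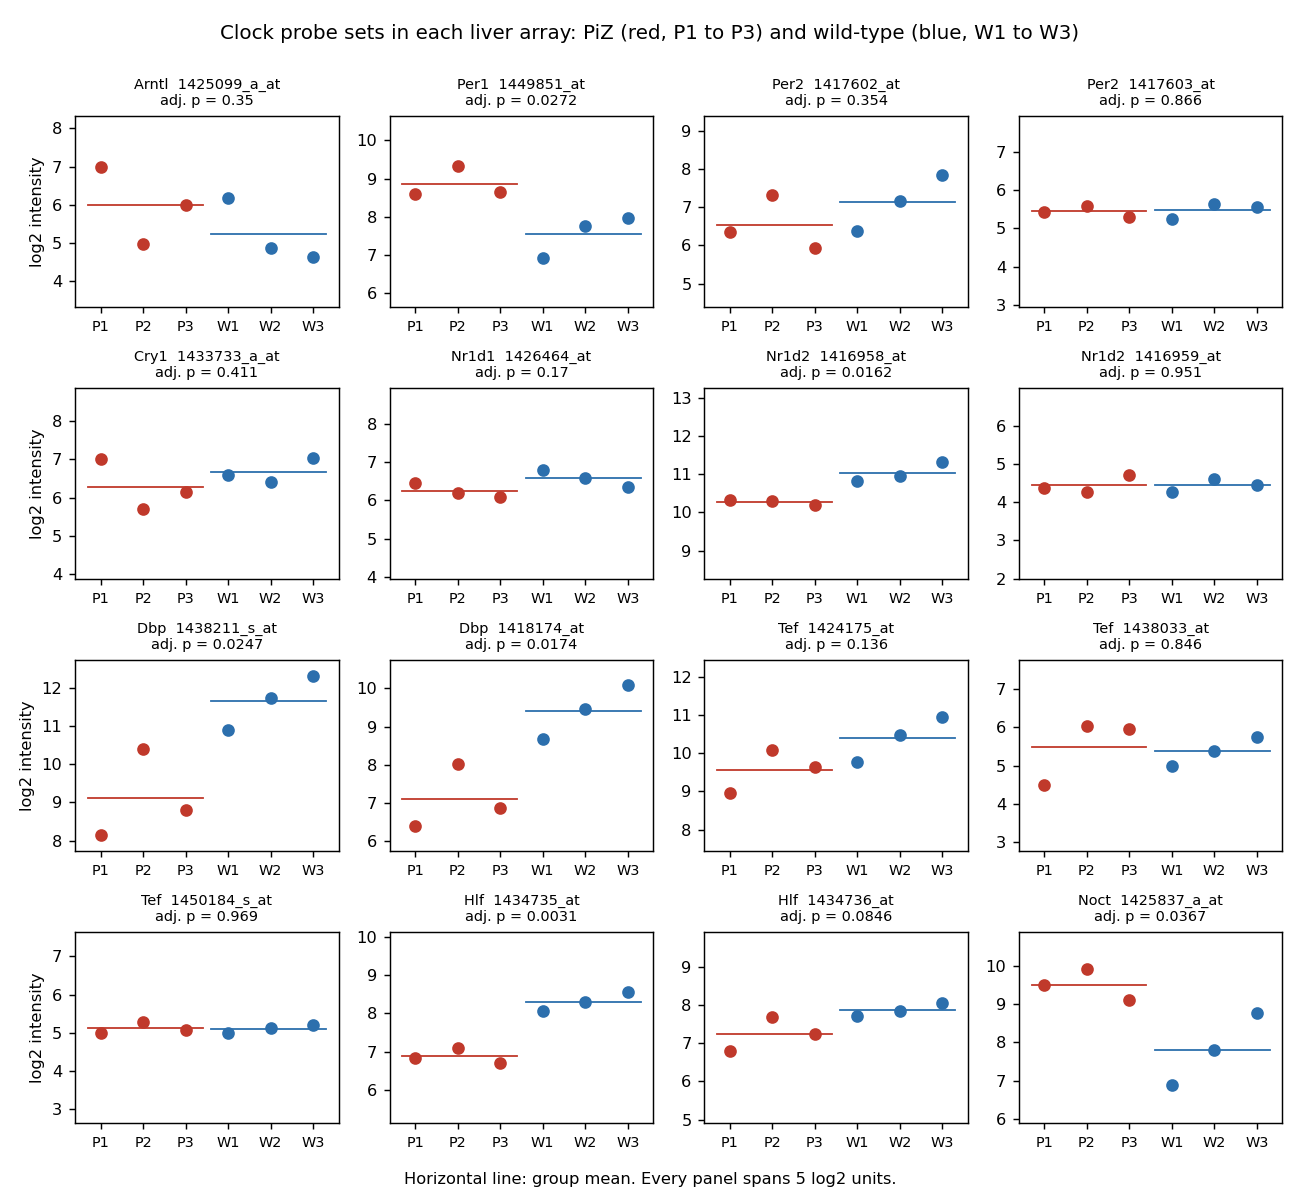
Log2 intensity of each of the 16 clock probe sets (vertical axis, 1 panel each) in the 3 PiZ arrays (red) and 3 wild-type arrays (blue), with group means as lines. Dbp, Hlf 1434735_at and Nr1d2 1416958_at lie lower in every PiZ array, and Per1 and Noct higher.

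Arntl encodes the activator at the core of the loop. Its probe set 1425099_a_at read 7.01, 4.99 and 6.00 in PiZ replicates 1, 2 and 3, and 6.18, 4.87 and 4.65 in wild-type replicates 1, 2 and 3. The groups overlapped, and within each of them replicate 1 was the highest array. The change of 0.76 (SE 0.56, 95% interval -0.55 to 2.07, limma adjusted p = 0.35) did not pass, and it was 1.98 (adjusted p = 0.0487) after adjustment for control 3′ to 5′ signal.

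Per1 and Per2 encode repressors of the loop, and Per1 also answers quickly to glucocorticoid and cAMP signals. Per1 (1449851_at) read 8.59, 9.34 and 8.64 in PiZ, against 6.93, 7.76 and 7.97 in wild-type. Every PiZ array lay above every wild-type array. It rose by 1.30 (SE 0.31, fold 2.47, limma adjusted p = 0.0272). The brighter Per2 probe set, 1417602_at, read 6.35, 7.32 and 5.92 in PiZ, against 6.38, 7.16 and 7.84 in wild-type, and the groups overlapped. Its change of -0.60 (SE 0.44, 95% interval -1.63 to 0.44, adjusted p = 0.354) did not pass. The other, 1417603_at, lay between 5.25 and 5.63 on all 6 arrays (change -0.04, turning to 0.08 when arrays were centred on reference genes). The call of Per1 held without PiZ replicate 1. It was lost without PiZ replicate 2 or 3 (adjusted p = 0.0762 and 0.0697), without wild-type replicate 1, 2 or 3 (0.0745, 0.0692 and 0.0525), in PiZ replicate 1 alone against wild-type (0.114) and after adjustment for control 3′ to 5′ signal (0.184).

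Cry1 encodes the partner of the Per proteins in repression. Its probe set 1433733_a_at read 7.02, 5.69 and 6.14 in PiZ, against 6.59, 6.40 and 7.05 in wild-type. PiZ replicates 2 and 3 lay below all wild-type arrays, and PiZ replicate 1 lay among them. The change of -0.40 (SE 0.33, 95% interval -1.18 to 0.38, adjusted p = 0.411) did not pass. Without PiZ replicate 1 it was -0.77 (adjusted p = 0.0187), and with PiZ replicate 1 alone it was 0.34 (adjusted p = 0.391).

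Nr1d1 and Nr1d2 encode nuclear receptors that bind heme and repress Arntl. Nr1d2 (1416958_at), among the brighter members, read 10.33, 10.29 and 10.19 in PiZ, against 10.81, 10.94 and 11.32 in wild-type. The groups did not overlap, and the PiZ arrays lay within 0.15 of each other. It fell by 0.75 (SE 0.15, fold 0.594, limma adjusted p = 0.0162), and the call was lost without PiZ replicate 3 (adjusted p = 0.063) or wild-type replicate 2 or 3 (0.0564 and 0.0556), in PiZ replicate 1 alone (0.0689) and after adjustment for control 3′ to 5′ signal (0.0675). The dim second probe set of Nr1d2, 1416959_at, read between 4.26 and 4.72 on all arrays, with a change of 0.02 (-0.11 when quantile normalized again, -0.12 by cyclic loess). Nr1d1 (1426464_at) read 6.46, 6.19 and 6.08 in PiZ, against 6.80, 6.60 and 6.34 in wild-type, and the groups overlapped. Its change of -0.34 (SE 0.16, 95% interval -0.71 to 0.04, adjusted p = 0.17) did not pass, but did without PiZ replicate 1 (-0.44, adjusted p = 0.0382).

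Dbp, a PAR bZIP factor whose mRNA swings widely over the day in liver, showed the largest change of the 16 probe sets. Probe set 1438211_s_at read 8.15, 10.38 and 8.79 in PiZ, against 10.90, 11.73 and 12.31 in wild-type. The other probe set, 1418174_at, read 6.40, 8.02 and 6.86 in PiZ, against 8.67, 9.46 and 10.09 in wild-type. In both, every PiZ array lay below every wild-type array, and the order of the 6 arrays was the same. Dbp fell by 2.54 (SE 0.58, fold 0.172, limma adjusted p = 0.0247) in 1438211_s_at and by 2.31 (SE 0.47, fold 0.202, adjusted p = 0.0174) in 1418174_at. In PiZ replicates 1, 2 and 3 the distance of 1438211_s_at from the wild-type mean was -3.50, -1.26 and -2.86. Both calls were lost without PiZ replicate 3 (adjusted p = 0.0948 and 0.0725), wild-type replicate 2 (0.0831 and 0.0654) or wild-type replicate 3 (0.0987 and 0.0696), with changes of -2.21 to -2.50 in 1438211_s_at and -1.97 to -2.29 in 1418174_at.

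Hlf, another PAR bZIP gene, fell in 1 of its 2 probe sets. Probe set 1434735_at read 6.85, 7.11 and 6.71 in PiZ, against 8.07, 8.29 and 8.57 in wild-type, so that the groups stood 0.96 apart at their closest. It fell by 1.42 (SE 0.17, fold 0.373, limma adjusted p = 0.0031), and this was the single clock call that passed under all 16 alternatives that gave it a value (adjusted p from 0.000188 to 0.0211). Probe set 1434736_at read 6.79, 7.68 and 7.24 in PiZ, against 7.72, 7.83 and 8.04 in wild-type. Those groups did not overlap either, though PiZ replicate 2 lay within 0.04 of the lowest wild-type array. The change there was -0.63 (SE 0.22, limma adjusted p = 0.0846). It passed without PiZ replicate 2 (-0.85, adjusted p = 0.0361) and after adjustment for control 3′ to 5′ signal (-1.11, adjusted p = 0.0122). In PiZ replicate 1 alone the change was -1.07, close to the adjusted value.

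Tef, the remaining PAR bZIP gene, did not pass in any of 3 probe sets. The brightest, 1424175_at, read 8.95, 10.08 and 9.64 in PiZ, against 9.76, 10.48 and 10.93 in wild-type, with overlap. Its change was -0.84 (SE 0.36, 95% interval -1.68 to 0.01, adjusted p = 0.136), and -1.53 (adjusted p = 0.0393) after adjustment for control 3′ to 5′ signal. Probe set 1438033_at read 4.49, 6.04 and 5.97 in PiZ, against 5.0, 5.38 and 5.74 in wild-type: PiZ replicate 1 was the lowest array and PiZ replicates 2 and 3 the highest. Its change of 0.12 (SE 0.41) became 0.63 (adjusted p = 0.0327) without PiZ replicate 1 and -0.88 (adjusted p = 0.0704) with PiZ replicate 1 alone. The third, 1450184_s_at, lay between 5.0 and 5.29 on all arrays (change 0.01, against -0.11 when quantile normalized again and -0.13 by cyclic loess).

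Noct encodes nocturnin, an enzyme whose mRNA cycles in mouse liver. Its probe set 1425837_a_at read 9.50, 9.91 and 9.12 in PiZ, against 6.88, 7.80 and 8.76 in wild-type. The groups did not overlap, but wild-type replicate 3 lay only 0.36 below the lowest PiZ array, while wild-type replicate 1 lay 2.24 below it. It rose by 1.70 (SE 0.44, fold 3.24, limma adjusted p = 0.0367). The call was lost without PiZ replicate 2 or 3 (adjusted p = 0.111 and 0.0786), without wild-type replicate 1 or 2 (0.0875 and 0.105), in PiZ replicate 1 alone (0.119) and after adjustment for control 3′ to 5′ signal (0.156).

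**Figure D2:**
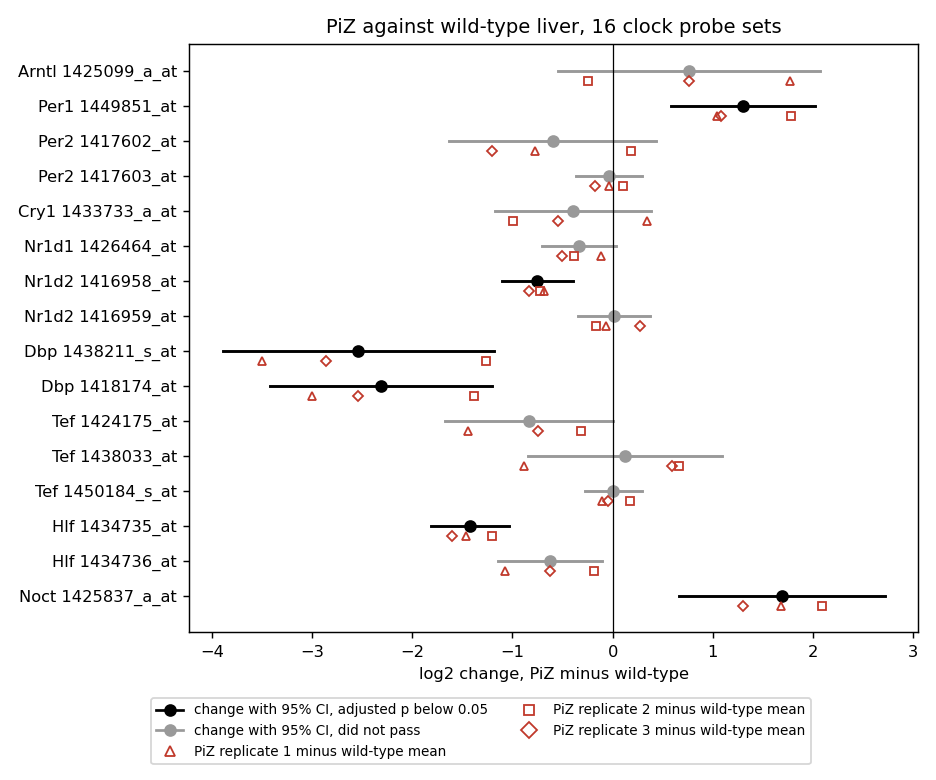
Log2 change of the 16 clock probe sets (horizontal axis, PiZ minus wild-type, circles with 95% intervals; black where the adjusted p was below 0.05) and the distance of each PiZ array from the wild-type mean (red symbols). Of the PiZ arrays, replicate 1 (triangles) lies furthest right and replicate 2 (squares) furthest left for Arntl and Cry1, and the reverse holds for Dbp and Tef 1424175_at.

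The clock genes varied among mice of the same group far more than most genes on the array. In wild-type, the highest and lowest array differed by a median of 0.69 over the 16 probe sets and 0.20 over all probe sets. The difference exceeded 1, a doubling, for 7 of the 16, against 0.667% of all probe sets. Noct spanned 1.87 among wild-type mice, Arntl 1.53, Per2 (1417602_at) 1.46 and Dbp 1.42 in 1418174_at. In PiZ the medians were 0.84 over the 16 and 0.40 over all, and 7 of the 16 exceeded 1, against 7.81% of all probe sets. Dbp spanned 2.24 in PiZ (1438211_s_at) and Arntl 2.02, whereas Nr1d2 (1416958_at) spanned 0.15.

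**Figure D3:**
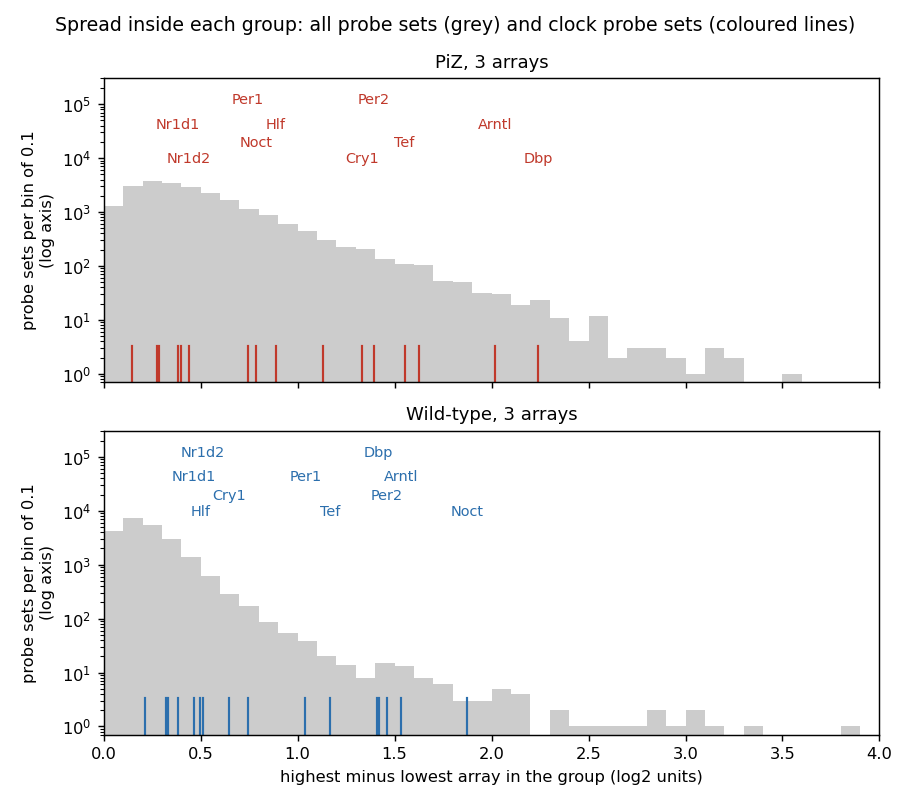
Difference between the highest and lowest array of a group (horizontal axis, log2 units) for all probe sets (grey bars, number per bin on a log axis) and for the 16 clock probe sets (coloured lines, each gene named at its widest probe set), in PiZ above and wild-type below. Wild-type Noct, Arntl, Per2 and Dbp lie in the thin right tail.

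Several member probe sets shared an order of arrays inside each group. The orders named here were picked after the values were seen, so the shares beside them describe and do not test. In wild-type, replicate 3 was the highest and replicate 1 the lowest array for 11 of the 16 probe sets, against 16.6% of all probe sets, and Arntl and Nr1d1 ran the other way with replicate 1 highest and replicate 3 lowest. In PiZ, replicate 2 was the highest and replicate 1 the lowest for 7 of the 16, against 25.5% of all probe sets. Arntl and Cry1 ran the other way there, with replicate 1 highest and replicate 2 lowest. Nr1d1 and Nr1d2 1416958_at were also highest in replicate 1, and lowest in replicate 3. The Gapdh difference between 3′ and 5′ ends was likewise highest in PiZ replicate 2 (4.39) and lowest in PiZ replicate 1 (1.99), with 4.01 in replicate 3. The hybridization controls ranked the PiZ arrays the same way. The part of these control signals in the PiZ order of the clock genes was not tested. Taking both groups, 7 of the 15 probe sets other than that of Arntl had the exact opposite order of Arntl in PiZ and in wild-type, against 4.78% of all other probe sets. They were both of Dbp, all 3 of Tef, Per1 and Hlf 1434736_at. Probe sets of the same gene are not independent, so all the counts of this paragraph overstate the number of separate cases. Some orders rested on small differences. Tef 1450184_s_at lay between 5.0 and 5.29 on all arrays, and Per1 read 8.59 in PiZ replicate 1 and 8.64 in replicate 3. None of the 15 had the order of Arntl in both groups, against 3.51% of all other probe sets, so that count lay near the background.

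Some genes outside the 10 members had one or the other order. Of the 101 probe sets of the 3 gene lists described further on, 11 had the order of Arntl in both groups, 6 the opposite order and 84 neither. Over all probe sets other than that of Arntl, 3.51% had its order and 4.78% the opposite, so the count of the opposite order lay near the background. Here too, probe sets of the same gene are not independent. Those with the order of Arntl were both of Clock, the brighter of Npas2, that of Nfil3, a repressor that binds D-boxes, and all 3 of Insig2, a regulator of sterol synthesis that is repressed by REV-ERB alpha in mouse liver, along with 1 each of the cue-responsive genes Crem, Klf9, Pdk4 and Tsc22d3. The opposite order in both groups was found for both probe sets of Usp2, a deubiquitinase gene with a strong daily rhythm in liver, and for 1 each of Per3 (1421087_at, not its other 2), Alas1, Gstt2 and Csnk1d. Usp2 (1417169_at) read 7.73, 8.77 and 8.19 in PiZ, against 7.34, 8.66 and 9.87 in wild-type. It thus spanned 2.53 among wild-type mice, while its change between groups was -0.39 (SE 0.58 in the fit over genes) and did not pass. Its other probe set, 1417168_a_at, changed by -1.06 (SE 0.66, limma adjusted p = 0.278) and did not pass either. These genes were singled out after their values were seen.

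**Figure D4:**
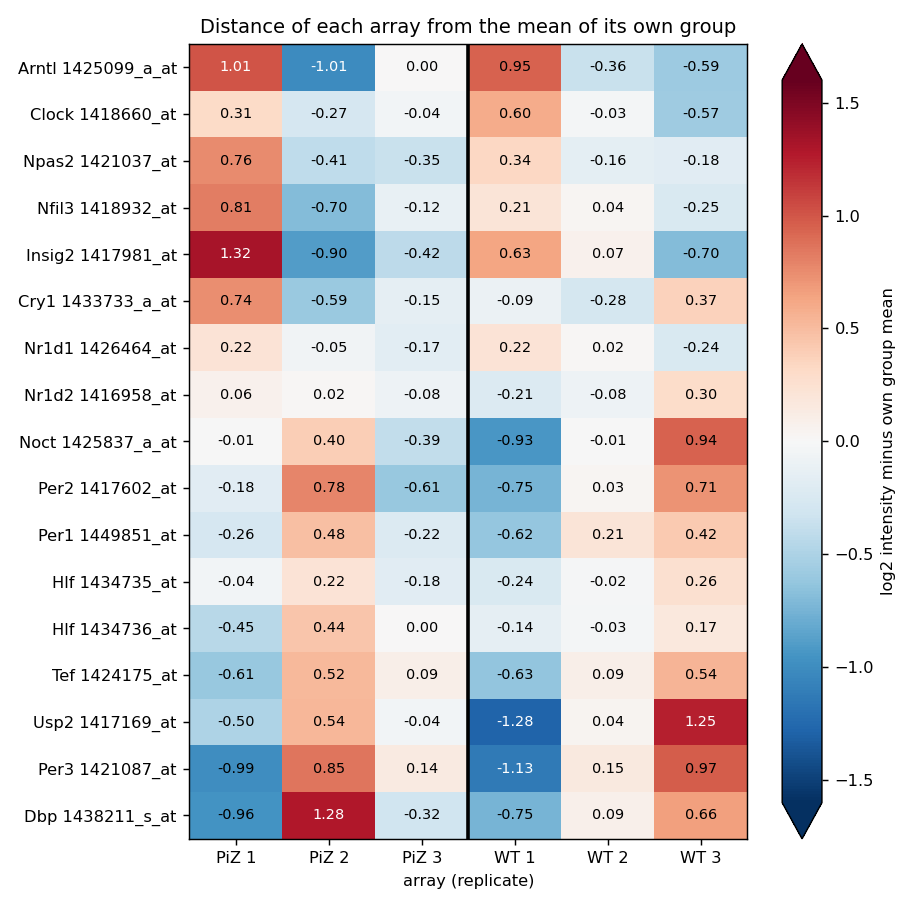
Distance of each array from the mean of its own group (colour and printed value, log2 units) for clock and clock-related probe sets (rows) in the 3 PiZ and 3 wild-type arrays (columns). Arntl, Clock, Npas2, Nfil3, Insig2 and Nr1d1 are positive in replicate 1 of both groups. Dbp, Per3, Usp2, Tef, Per1, Per2, Noct and both Hlf probe sets are negative there. In PiZ replicate 1 the distance is slight for Noct (-0.01) and Hlf 1434735_at (-0.04), and these and Per2 are lowest in PiZ replicate 3. Cry1 and Nr1d2 are positive in PiZ replicate 1 and negative in wild-type replicate 1.

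Of all genes measured, Per3 had the profile most like that of Dbp. Likeness was the mean absolute difference between log2 values of 2 genes over the 6 arrays, each centred on its own mean, with the brightest probe set standing for a gene. It was 0.34 for Per3, 0.36 for Socs2, an inhibitor of growth hormone signalling, 0.47 for Onecut1, a hepatocyte transcription factor, 0.47 for Cnmd and 0.48 for Cish, another target of growth hormone signalling. Because each mean spanned both groups, likeness took in the change between groups as well as the order within them. Of these genes only Per3 had the order of Dbp in both groups. Socs2, Onecut1 and Cish had another order in wild-type, and Cnmd another in PiZ, where it lay between 3.58 and 3.71. Among the clock members Hlf came nearest, at 0.72 (rank 26 of all genes), followed by Tef at 0.85 (rank 84), while Noct lay at 2.12. Per3 read 5.01, 6.86 and 6.14 in PiZ, against 6.83, 8.11 and 8.93 in wild-type, overlapping only because PiZ replicate 2 lay 0.02 above wild-type replicate 1. Socs2 fell by 2.58 (SE 0.52, limma adjusted p = 0.0129), and Cish by 2.3 (SE 0.22, adjusted p = 0.00106). The call of Socs2 was lost without PiZ replicate 3 (adjusted p = 0.056) or wild-type replicate 1 or 2 (0.0502 and 0.0521).

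The other genes of the clock showed few changes between groups. Of 19 listed, 15 were measured, 2 rose and 0 fell, with a median change of 0.08, which was also the median of all genes. At an unadjusted p below 0.05, 5 were higher and 2 lower. Over all 12393 genes, tested by limma with the brightest probe set each, 23.6% passed, 11.3% higher and 12.3% lower, and 44.8% had groups that did not overlap, against 6 of the 15. Csnk1d, a kinase that marks Per proteins for degradation, rose by 0.54 (SE 0.15, limma adjusted p = 0.041), and Timeless, better known in mammals for DNA replication than for the clock, by 0.53 (SE 0.12, adjusted p = 0.0225). The 5 probe sets of Csnk1d ran from -0.32 to 0.74, and the other of Timeless changed by 0.24 without passing. Both calls were fragile. That of Csnk1d was lost without any array other than PiZ replicate 1 (adjusted p from 0.0857 to 0.139) and when arrays were centred on reference genes (0.069), and that of Timeless without PiZ replicate 2 or 3 or wild-type replicate 1 or 3 (0.061 to 0.1). Adjusted for control 3′ to 5′ signal, their adjusted p was 0.292 and 0.119. The list had 9 calls without PiZ replicate 1.

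Npas2, the alternative partner of Arntl, and Nfil3 read higher in every PiZ array without passing. Npas2 (1421037_at) read 5.65, 4.48 and 4.53 in PiZ, against 4.27, 3.78 and 3.75 in wild-type, a change of 0.95 (SE 0.32, limma adjusted p = 0.0637 over genes). This probe set was dim, with only 25.8% of all probe sets dimmer. The other of Npas2, 1421036_at, dimmer still, changed by 0.07 with overlap of the groups. Nfil3 read 8.96, 7.45 and 8.03 in PiZ, against 7.27, 7.09 and 6.81 in wild-type, a change of 1.08 (SE 0.35, adjusted p = 0.0574). PiZ replicate 1 was the highest array for both genes. Alone against wild-type it gave changes of 1.72 for Npas2 and 1.90 for Nfil3. Without it the changes were 0.57 (limma adjusted p = 0.0232) and 0.68 (0.024). Nfil3 also passed without PiZ replicate 2 (1.43, adjusted p = 0.0259). After adjustment for control 3′ to 5′ signal the changes were 1.77 for Npas2 (adjusted p = 0.00245) and 1.95 for Nfil3 (0.00396), and when arrays were centred on reference genes 1.07 (0.0199) and 1.21 (0.0176). In all, Npas2 passed under 6 of 15 alternatives and Nfil3 under 8 of 16, counts that include PiZ replicate 1 alone. Clock changed by -0.10 (SE 0.29), and by 0.02 when arrays were centred on reference genes. Per3 missed the threshold at -1.95 (SE 0.60, limma adjusted p = 0.0503). It passed without wild-type replicate 1 (-2.52, adjusted p = 0.0347) and after adjustment for control 3′ to 5′ signal (-3.10, 0.0239). In PiZ replicate 1 alone its change was -2.95. Per3 passed under 8 of 16 alternatives, PiZ replicate 1 alone among them, and its other 2 probe sets changed by 0.10 and -0.11. Ciart was not analysed here.

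Liver genes listed as clock outputs moved both ways. Of 20 listed, 17 were measured, 3 rose and 4 fell, with a median of -0.39. Over all genes 11.3% rose and 12.3% fell, with a median of 0.08. Klf10, a clock-controlled transcription factor, read 7.04, 6.77 and 6.80 in PiZ, against 8.88, 9.65 and 9.90 in wild-type, and fell by 2.61 (SE 0.25, limma adjusted p = 0.00101). Gys2, the liver glycogen synthase, fell by 1.10 (SE 0.25, adjusted p = 0.0197), the carboxylesterase gene Ces2e by 1.25 (SE 0.21, adjusted p = 0.00705) and the tetraspanin gene Tspan4 by 1.13 (SE 0.20, adjusted p = 0.00848). The tubulin gene Tubb2a read 12.35, 12.11 and 12.10 in PiZ, against 10.66, 10.12 and 8.69 in wild-type, and rose by 2.36 (SE 0.44, adjusted p = 0.0102). Tfrc, the transferrin receptor, rose by 1.44 (SE 0.22, adjusted p = 0.0056) while its other 2 probe sets, both dim, changed by 0.14 and 0.13 without passing, and the glutathione transferase Gstt2 by 1.18 (SE 0.23, adjusted p = 0.011). The call of Gys2 was lost without PiZ replicate 3 or wild-type replicate 2 (adjusted p = 0.0727 and 0.0658). Adjusted for control 3′ to 5′ signal, Gys2, Gstt2 and Tspan4 no longer passed (0.071, 0.0739 and 0.0537). Without PiZ replicate 1 the list had 11 calls.

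Genes that answer to hormones, fasting and heat, cues that reset the liver clock, rose more often than they fell in PiZ. Of 20 listed, 19 were measured, 7 rose and 1 fell, with a median of 0.58, against 11.3% higher, 12.3% lower and a median of 0.08 over all genes. The other 11 did not pass. Of these, Pck1 (-0.66), G6pc (-0.69) and Hspa1a (-0.39) read lower in PiZ. Fkbp5 (0.16), Angptl4 (0.27), Klf9 (0.28), Crem (0.40), Hsp90aa1 (0.51), Fos (0.71), Egr1 (1.01) and Sgk1 (1.26) read higher. The 7 probe sets of Klf9 ran from -0.88 to 0.28, the 3 of Crem from -0.49 to 0.40 and the 3 of Hsp90aa1 from 0.13 to 1.70. Igfbp1, a fasting-induced binding protein of insulin-like growth factors, read 13.88, 13.61 and 13.51 in PiZ, against 12.20, 10.55 and 9.49 in wild-type, and rose by 2.92 (SE 0.58, limma adjusted p = 0.0129). Pdk4, a fasting-induced brake on glucose oxidation, rose by 2.69 (SE 0.40, adjusted p = 0.00487), and the immediate early nuclear receptor gene Nr4a1 by 1.86 (SE 0.27, adjusted p = 0.00417). Tat, a tyrosine-degrading enzyme induced by glucocorticoids, rose by 1.12 (SE 0.27), the chaperone gene Hsph1 by 0.84 (SE 0.21), the coactivator gene Ppargc1a by 0.80 (SE 0.23) and Tsc22d3, a direct glucocorticoid target, by 0.58 (SE 0.15). The heat shock gene Hspa1b read 9.32, 9.59 and 8.74 in PiZ, against 10.26, 11.23 and 10.47 in wild-type, and fell by 1.44 (SE 0.30, adjusted p = 0.0139). The other probe set of Hsph1 (-0.14) and the other 4 of Ppargc1a (-0.29 to 0.18) did not pass.

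Of these calls, Pdk4, Nr4a1 and Hspa1b passed whichever single array was left out. Igfbp1 was lost without wild-type replicate 2 (adjusted p = 0.0515) and in PiZ replicate 1 alone (0.0604). Adjusted for control 3′ to 5′ signal, Hspa1b and Ppargc1a no longer passed (0.0552 and 0.117). Hsph1 was lost without PiZ replicate 3 or wild-type replicate 1 or 3 (adjusted p from 0.0908 to 0.111). Tat and Ppargc1a were lost without PiZ replicate 3 or any wild-type array (0.0557 to 0.0927 and 0.0731 to 0.135), and Tsc22d3 without PiZ replicate 2 or 3 or wild-type replicate 2 or 3 (0.0545 to 0.12). The list had 4 or 5 calls without PiZ replicate 3 or any 1 wild-type array.

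**Figure D5:**
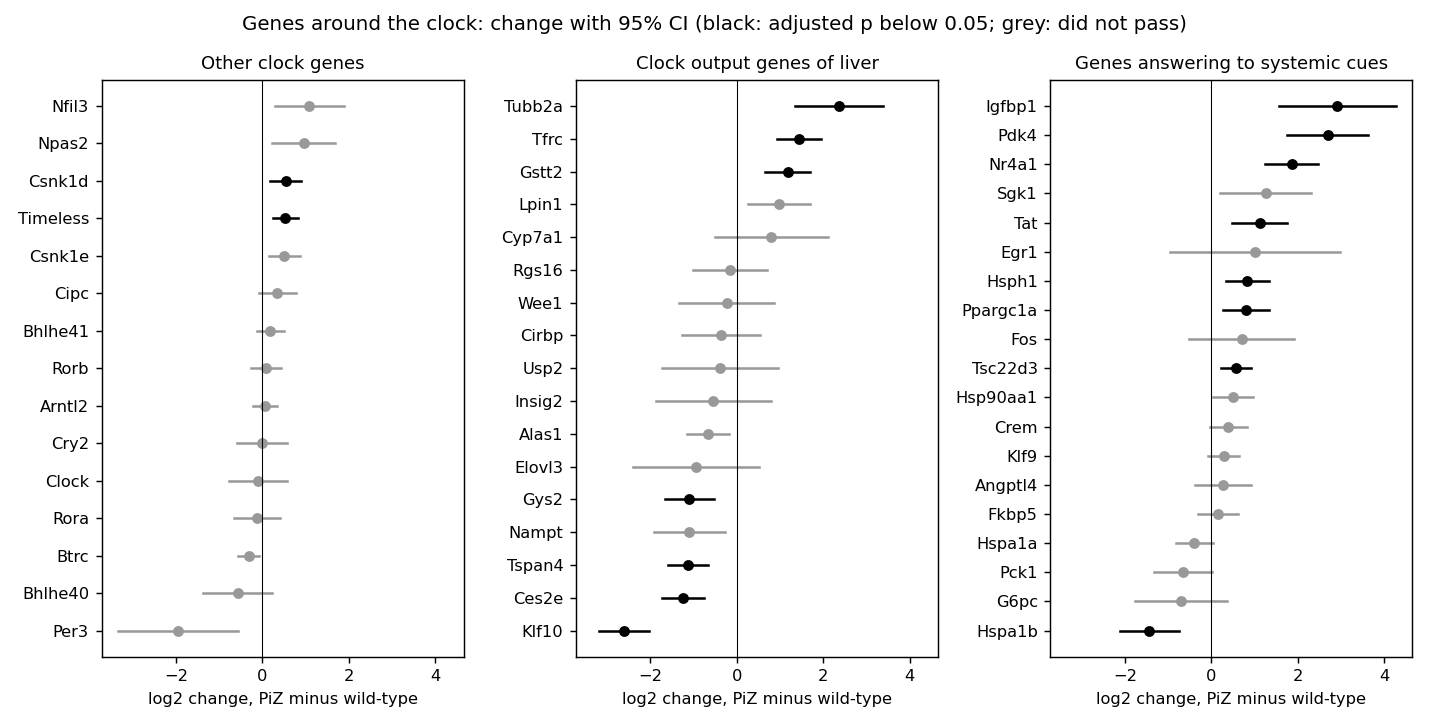
Log2 change (horizontal axis, PiZ minus wild-type) with 95% interval for each measured gene of the lists of other clock genes, clock output genes of liver and genes answering to systemic cues; black marks an adjusted p below 0.05. Klf10 lies furthest left among outputs, and Igfbp1 and Pdk4 furthest right among cue-responsive genes.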

How the data were processed

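Per the submitters' processing notes, the authors used affy and RMA, and the deposited values are on a log2 scale, 1 for each probe set and array. Software versions, chip definition and filters were not given in the sources used here. RMA corrects background, equalises arrays by quantiles and summarises probes, which removes any shift common to most genes. The number of arrays limits the precision, and without detection calls dim probe sets cannot be told from background.

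The 64 control probe sets were left out. The other 22626 were fitted together (limma 3.58.1 with lmFit and eBayes, R 4.3.3, two-sided, no covariate). Adjustment was Benjamini-Hochberg over all of them, at a threshold of 0.05. Listed genes were fitted over 12393 genes, each by its brightest probe set, so adjusted p can differ between the fits. In a simulation of the PiZ and wild-type contrast over 22626 probe sets, 65% of changes of 1 and 91% of changes of 2 on the log2 scale were called. At each size 100 probe sets drawn from all were changed, and both groups were given the same spread. In the data the median range was 0.40 in PiZ and 0.20 in wild-type. These shares thus do not apply to the clock probe sets, which varied more than most. Alternatives covered normalization, dim features, array weights, RNA quality, the replicate block, single arrays left out and a stricter threshold. Figures used Python 3.11.15 and matplotlib 3.10.9.

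The members and lists were chosen with earlier results of these data known. The text names all member probe sets, up to 8 listed genes that passed in each list, Clock, Npas2, Nfil3, Per3 and Ciart, the 5 genes most like Dbp, and marker genes as examples. Usp2 and Insig2 were added after their values were seen.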

Additional observations from a re-analysis of the deposited data

How the results depend on the processing

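Every array decided some calls. The 6 clock probe sets called became 1 to 9, the 4331 probe sets called in all became 1239 to 10547, the 2 other clock genes became 0 to 9, the 7 output genes 6 to 11 and the 8 cue-responsive genes 4 to 11 when single arrays were left out. The highest of these counts all came without PiZ replicate 1, and the fewest probe sets in all without wild-type replicate 3. With PiZ replicate 1 alone, that array was assumed to vary like wild-type. At a limma adjusted p below 0.01 these counts were 1, 1133, 0, 4 and 2, and 7 other clock genes had an unadjusted p below 0.05 with all arrays. Array weights gave 10986 probe sets in all and 9 other clock genes. Adjustment for control 3′ to 5′ signal (the covariate) gave 2812 probe sets in all, 4 other clock genes and 4 output genes. Other clock genes numbered 4 without dim features and 5 after cyclic loess or a further quantile normalization.

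Same-numbered arrays deviated together with r of 0.30, 0.30 and -0.04 over all probe sets for replicates 1, 2 and 3, so the numbers were not taken as pairs. With the replicate number as a block, 8 clock probe sets and 5189 in all were called, with 5 other clock genes, 8 output genes and 9 cue-responsive genes.

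Some results changed sign, all of them uncalled except Hsph1. Nr1d2 1416959_at read -0.12 after cyclic loess, -0.11 after quantile normalization, -0.073 with the covariate, -0.066 with PiZ replicate 1 alone, and -0.11 to 0.11 with single arrays left out. Tef 1450184_s_at read -0.13, -0.11, -0.13 and -0.11 under those settings, -0.0059 with array weights, and -0.077 to 0.066 with arrays left out. Tef 1438033_at read -0.92 with the covariate and -0.88 with PiZ replicate 1 alone, and -0.15 to 0.63 with arrays left out. Per2 1417603_at read 0.084 after centring on reference genes, and -0.15 to 0.039 with arrays left out. Cry1 read 0.43 with the covariate and 0.34 with PiZ replicate 1 alone. Clock read 0.023 after centring on reference genes, 0.27 with the covariate, 0.21 with PiZ replicate 1 alone, and -0.38 to 0.20 with arrays left out. Hsph1, bright and called at 0.84, read -0.14 in its most variable probe set, and Usp2 -1.03 to 0.23 with arrays left out, turning positive without wild-type replicate 3. Where no cause is given, the cause was not tested. Centring on reference genes moved the median of all probe sets to 0.20, against 0.08, and 6 of the 8 reference genes themselves had an unadjusted p below 0.05.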

Other observations

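Several listed genes varied more among wild-type mice than between the groups. Elovl3, a fatty acid elongase, read 9.24, 8.31 and 10.01 in PiZ, and 11.22, 10.37 and 8.80 in wild-type. Cyp7a1, the rate-limiting enzyme of bile acid synthesis, read 10.15, 9.38 and 9.99 in PiZ, and 8.13, 8.50 and 10.49 in wild-type, where replicate 3 stood apart. Wee1, a cell cycle kinase gene under clock control in mouse liver, read 7.89, 7.39 and 7.33 in PiZ, and 6.93, 7.43 and 8.96 in wild-type. The immediate early gene Egr1 read 10.15, 11.27 and 10.71 in PiZ, and 11.73, 9.51 and 7.87 in wild-type, the widest spread among the genes of this paragraph. None of these 4 genes passed the test between groups. They were chosen after their values were seen.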
